A study of Mus musculus with 2 samples.

Results

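Transcripts of 10 genes of the actin cytoskeleton were followed in the thymus of newborn mice. They are the cytoplasmic actins Actb and Actg1, the beta-thymosins Tmsb4x and Tmsb10, profilin (Pfn1), cofilin (Cfl1), coronin 1A (Coro1a) and the Arp2/3 complex subunits Arpc1b, Arpc2 and Arpc3. They were chosen by name, and all 10 were found among the 43346 mouse genes of the deposited tables. RNA longer than 200 nt came from thymus tissue of strain B6NCrl at postnatal day 0, and each of 2 libraries was made from 13 pg of total RNA with spike-ins added. The labels call the assay single cell RNA-seq and the input 1 cell-equivalent, but the material is tissue RNA and no cell was isolated. Replicate 1 was pup 6 and replicate 2 was pup 7 of a C57/Bl6 female, listed under 1 donor, with sex not collected. No allele, treatment or second condition is named, so the data give levels and the difference between 2 pups, with no test between groups. That difference holds pup, RNA handling and library together.

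Actin is a globular protein that polymerises into filaments, and the balance between free monomer and filament sets cell shape, migration and contact. Beta-thymosins hold monomers in reserve, profilin loads them onto growing ends, and cofilin severs old filaments and returns them to monomer. The Arp2/3 complex starts branches on the side of existing filaments, and coronin 1A, which binds actin in blood cells, is needed for T cells to survive and to leave the thymus. Developing T cells crawl through the thymic cortex and medulla and build an actin-rich contact with each stromal cell that tests their receptor.

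The libraries held 25999043 and 31902773 expected counts in mouse genes in replicates 1 and 2. An expected count is an estimated number of reads, which need not be whole. Levels are given in TPM, which corrects counts for transcript length and depth, rescaled to 1000000 over mouse genes. All 11 thymocyte markers were read in both libraries and summed to 15180 TPM in replicate 1 and 14972 TPM in replicate 2. Most of that sum was Trbc2, at 6500 and 6037 TPM, and Trbc1, at 3150 and 3565 TPM. None of the 11 differed 2-fold, against 67.7% of all mouse genes averaging at least 100 counts. Most of the 11 averaged 10000 or more counts, where the share was 16.6%. The others lay between 1000 and 10000 counts, where it was 59.3%. Single markers were less even than the sum. Cd3g stood at 1120 and 715 TPM and Cd4 at 110 and 208 TPM, with 5 markers higher in replicate 1 and 6 in replicate 2. Markers of epithelium, mesenchyme, vessels and smooth muscle summed to 3756 and 3769 TPM, although Foxn1, which defines thymic epithelium, and Tagln had 0 counts in replicate 1. The sums of the other lists differed, with erythroid markers at 3527 and 9133 TPM and heart and skeletal muscle markers at 1575 and 516 TPM. Of the 14 muscle markers 13 had at least 1 count in both libraries, and Nppa, a defining gene of the atrium, had 0 counts in replicate 2. Some of the 13 were scarcely read in 1 library. Tnnc1 had 1628 and 7 counts, Tnnt2 had 1358 and 8 and Des had 4 and 1247. The part of these differences in those described next was not tested.

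The 10 genes together made up 1.99% ± 0.337 of mouse TPM (SD, n = 2), with a sum of 22278 TPM in replicate 1 and 17515 TPM in replicate 2. Their share of mouse counts was 2.09% in replicate 1 and 1.57% in replicate 2. Exact binomial limits at 95% were 2.08 and 2.09 for the first share and 1.57 and 1.58 for the second, and cover counting error only. Levels spanned from Actb at 5846 ± 567 TPM to Arpc3 at 99.3 ± 110 TPM. By mean TPM Actb ranked 4th among all mouse genes outside the mitochondrial genome, but 5th in replicate 1 and 6th in replicate 2. In the order of means it lay between the noncoding RNA Malat1 at 6141 ± 569 TPM and Gm29216, annotated as an unprocessed pseudogene, at 5536 ± 1855 TPM. Gm29216 stood at 4224 TPM in replicate 1 and 6847 TPM in replicate 2, where it was above Actb. The ranking left out only genes on the mitochondrial chromosome, so any nuclear copies of them stayed in it. At the low end Arpc3 held rank 1948 by mean, but 1102 in replicate 1 and 5774 in replicate 2. By mean it lay between Actr1a at 99.3 ± 62.8 TPM and Kctd20 at 99.3 ± 56.7 TPM. With 2 libraries no likeness of pattern between genes could be measured.

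In order of mean level the genes ran Actb, Tmsb4x, Pfn1, Cfl1, Actg1, Tmsb10, Coro1a, Arpc2, Arpc1b and Arpc3, and 6 of the 10 held the same place in both libraries. Of the 9 neighbouring pairs in that order, 6 were apart, in that the lower library of the higher gene stood above both libraries of the next. The ranges of Pfn1 and Cfl1, of Actg1 and Tmsb10 and of Arpc1b and Arpc3 overlapped, so the order within those pairs was not larger than the spread between the pups.

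**Figure D1:**
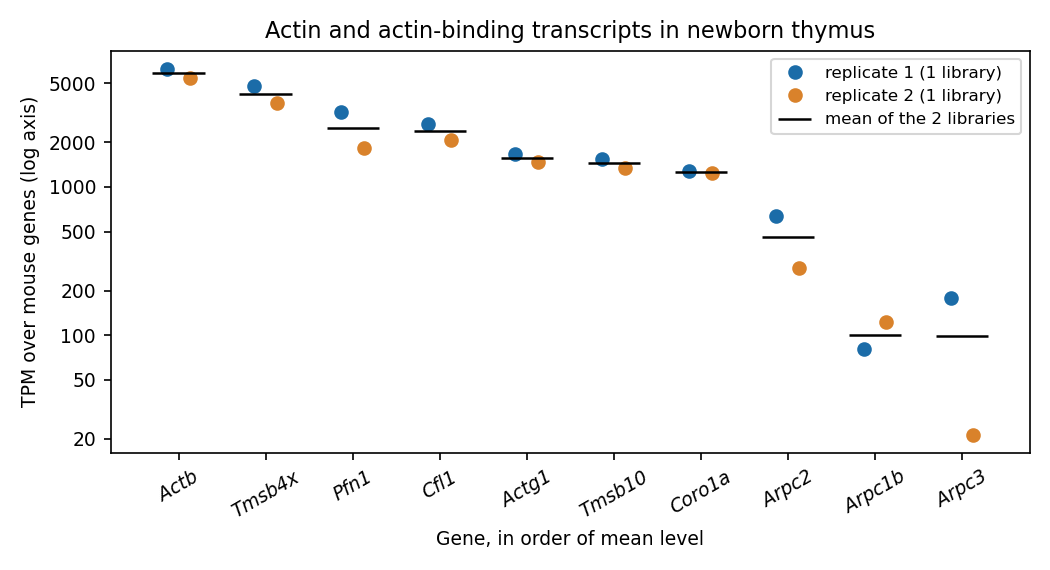
Level of each of the 10 genes in TPM over mouse genes (log axis), with 1 point for each library and a line at the mean of 2. The 7 genes from Actb to Coro1a all lie above 1000 TPM in both libraries, and Arpc3 shows the widest gap, at 177 and 21.3 TPM.

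Actb, the beta-actin gene (GRCm38 chromosome 5, 142903115 to 142906754, minus strand), stood at 6247 TPM in replicate 1 and 5446 TPM in replicate 2. Actg1, the gamma-actin gene (chromosome 11, 120345690 to 120348542, minus strand), stood at 1657 and 1463 TPM. Both were somewhat higher in replicate 1, and their libraries did not overlap between the genes. The ratio of Actb to Actg1 was 3.77 in replicate 1 and 3.72 in replicate 2 (3.75 ± 0.0335), so the pair kept its proportion while each level differed by a factor of 1.15 for Actb and 1.13 for Actg1. Their proteins are nearly alike, but their coding sequences differ at 128 of 1128 bases (88.7% identity). Within the coding sequence such differences separate reads of the actins. Actg1 matched 61.8% of the leading Actb transcript, so reads from the rest of it do not depend on them. The first 120 coding bases of each leading transcript, from GENCODE M21, are shown with the 22 bases that differ in capitals.
Actb: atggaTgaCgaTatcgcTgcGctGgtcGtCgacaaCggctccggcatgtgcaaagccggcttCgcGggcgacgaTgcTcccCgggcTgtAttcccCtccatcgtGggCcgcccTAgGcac
Actg1: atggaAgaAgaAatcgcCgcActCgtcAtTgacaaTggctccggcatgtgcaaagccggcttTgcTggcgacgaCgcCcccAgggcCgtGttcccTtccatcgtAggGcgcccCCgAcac

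Over the whole coding sequence 120 of the 128 differing bases are at codon base 3, where many changes leave the amino acid as it is, 8 are at codon base 1 and 0 at codon base 2. The deposited posterior SD of the count was 5.10 reads of 232045 for Actb in replicate 1 and 7.95 of 228346 in replicate 2. For Actg1 it was 43.2 of 61142 and 31.5 of 60786.

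The cytoplasmic actins made up 93.0% of the summed TPM of 6 actin genes in replicate 1 and 96.8% in replicate 2, and Actb alone 73.5% and 76.3%. Of the muscle actins, the cardiac gene Actc1 stood at 513 and 95.2 TPM, or 6.04% and 1.33% of the actin sum. Acta2, the smooth muscle actin, was alike in both pups at 74.8 and 90.4 TPM. Acta1, the skeletal actin, went the other way from Actc1 with 3.96 and 44.1 TPM, and Actg2, the enteric actin, and Actbl2 had 0 counts in both. The muscle marker list, which includes Actc1 and Acta1, was higher in replicate 1 in 10 of 12 genes averaging at least 100 counts, against 47.0% of all genes at that minimum, and in bulk RNA fewer cells of a type and less RNA per cell cannot be told apart.

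Tmsb4x, the thymosin beta-4 gene (chromosome X, 167207093 to 167209315, minus strand), stood at 4783 TPM in replicate 1 and 3694 TPM in replicate 2. Tmsb10, the thymosin beta-10 gene (chromosome 6, 72957347 to 72958748, minus strand), stood at 1540 and 1344 TPM. The libraries of the pair did not overlap, and Tmsb4x was 3.10 times Tmsb10 in replicate 1 and 2.75 times in replicate 2 (2.93 ± 0.251). The thymosins summed to 5680 ± 909 TPM and the cytoplasmic actins to 7406 ± 704 TPM. That is 0.800 and 0.729 thymosin transcripts per actin transcript in replicates 1 and 2 (0.765 ± 0.0501). Both coding sequences are 135 bases with the stop codon. They are shown whole because they are short enough to compare by base, with the 40 bases that differ in capitals (70.4% identity).
Tmsb4x: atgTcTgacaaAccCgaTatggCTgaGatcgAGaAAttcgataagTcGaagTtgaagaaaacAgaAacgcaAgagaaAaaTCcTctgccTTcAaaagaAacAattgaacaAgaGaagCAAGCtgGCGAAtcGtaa
Tmsb10: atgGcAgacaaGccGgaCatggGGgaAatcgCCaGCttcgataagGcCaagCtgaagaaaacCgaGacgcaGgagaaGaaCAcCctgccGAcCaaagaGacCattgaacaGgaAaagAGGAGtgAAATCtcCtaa

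Of the 40 differing bases 25 are at codon base 3, 8 at codon base 1 and 7 at codon base 2. Other thymosin genes had few counts, and as a family of near copies their values are uncertain. Tmsb15b1 had 383 counts in replicate 1 and 0 in replicate 2, and Tmsb15l had 1 and 203. Tmsb15b2 had 0 and 7 counts, and Tmsb15a had 0 in both. Among other monomer binders the twinfilin gene Twf2 stood at 219 TPM in replicate 1 and 246 TPM in replicate 2. Its relative Twf1 stood at 28.1 and 138 TPM, and Cap1, which helps recycle monomers, at 119 and 58.0 TPM. The counts of Cap1, 3336 and 3384, were nearly equal, so its 2-fold difference is one of TPM and not of counts. In the list of other monomer binders 5 of 6 genes at that minimum differed 2-fold, 2 higher in replicate 1 and 3 in replicate 2, where 67.7% of all mouse genes averaging at least 100 counts did, 29.7% higher in replicate 1 and 38.0% in replicate 2.

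Pfn1 (chromosome 11, 70651850 to 70654644, minus strand) stood at 3209 TPM in replicate 1 and 1822 TPM in replicate 2. Its ratio of 1.76 was the widest among the 7 most abundant members. Cfl1, the non-muscle cofilin gene (chromosome 19, 5490455 to 5495201, plus strand), stood at 2672 and 2086 TPM, a ratio of 1.28. Pfn1 was above Cfl1 in replicate 1 and below it in replicate 2. Per actin transcript there were 0.406 and 0.264 Pfn1 transcripts (0.335 ± 0.101) and 0.338 and 0.302 Cfl1 transcripts (0.320 ± 0.0255). The Cfl1 proportion thus varied less between the pups than that of Pfn1.

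Their relatives were far lower and less even. The profilin gene Pfn2 had 0 counts in replicate 1 and 241 in replicate 2, and Pfn3 and Pfn4 had 0 in both. The muscle cofilin gene Cfl2 stood at 81.2 and 1.07 TPM. Dstn, which encodes the cofilin relative destrin, stood at 129 and 422 TPM. Cfl1 exceeded Dstn 20.7 times in replicate 1 and 4.95 times in replicate 2.

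Coro1a (chromosome 7, 126699773 to 126707787, minus strand) was the most even of the 10, at 1272 TPM in replicate 1 and 1234 TPM in replicate 2 (1253 ± 26.7). Its log2 ratio of replicate 1 over replicate 2 was 0.04, which turned negative with DESeq2 size factors. Lck, a kinase of T cells, was as even, at 1424 and 1403 TPM, and the Coro1a to Lck ratio was 0.894 and 0.880. Lck was the most even of the 11 thymocyte markers, whose median absolute log2 ratio was 0.31. The others ran as far as -0.91 for Cd4 and 0.65 for Cd3g, so a ratio to another marker could be less stable. Among other coronins Coro1b stood at 21.7 and 269 TPM, Coro7 at 53.5 and 111 TPM and Coro1c at 77.9 and 63.8 TPM, although its counts of 1188 and 4564 ran the other way. Coro1a therefore exceeded Coro1b 58.6 times in replicate 1 but 4.59 times in replicate 2, and the difference lay in Coro1b.

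Among the 3 subunits of the Arp2/3 complex, Arpc2 and Arpc3 differed more between the pups than any other member, with TPM ratios of 2.26 and 8.31. Arpc1b, at a log2 ratio of -0.60, differed less than Pfn1 at 0.82. Arpc2 (chromosome 1, 74236084 to 74268209, plus strand), part of the core of the complex, stood at 640 TPM in replicate 1 and 283 TPM in replicate 2. Arpc3 (chromosome 5, 122391878 to 122414184, plus strand) stood at 177 and 21.3 TPM, from 2845 and 394 counts. Scaled to mouse counts that was a ratio of 8.86 (95% exact counting interval 7.97 to 9.87). Arpc1b (chromosome 5, 145114215 to 145130705, plus strand), the form of the ARPC1 subunit best known from blood cells, went the other way at 80.1 and 122 TPM. Scaled counts gave Arpc1b a ratio of 0.709 (0.680 to 0.740). Arpc2 was 3.61 times Arpc3 in replicate 1 and 13.3 times in replicate 2, whereas the assembled complex holds them in equal number.

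The other subunits ran from even to unlike. Arpc5 was the most abundant of the 9 subunit genes and nearly equal in both, at 798 and 796 TPM. Actr3 (Arp3) and Arpc4 were also even, at 379 and 323 TPM and at 188 and 166 TPM. Actr2 (Arp2) was higher in replicate 1 at 321 and 71.5 TPM, and Arpc5l was at 219 and 128 TPM. Arpc1a, which lies beside Arpc1b on chromosome 5 and is an alternative to it in the complex, stood at 72.5 and 214 TPM. The ratio of Arpc1b to Arpc1a was 1.10 in replicate 1 and 0.569 in replicate 2, so their order differed between the libraries. With alternative forms counted as separate genes, the highest gene exceeded the lowest 11.0 times in replicate 1 and 37.3 times in replicate 2. The lowest was Arpc1a in replicate 1 and Arpc3 in replicate 2. All 9 genes summed to 2875 and 2125 TPM. Arpin, which encodes an inhibitor of the complex, had 0 counts in replicate 1 and 1183 in replicate 2, or at least 321-fold lower in replicate 1 against a floor of 3 counts in that library. That bound covers read counting only. Of all genes averaging at least 100 counts, 35.1% had 10 or more in 1 library and 3 or fewer in the other.

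**Figure D2:**
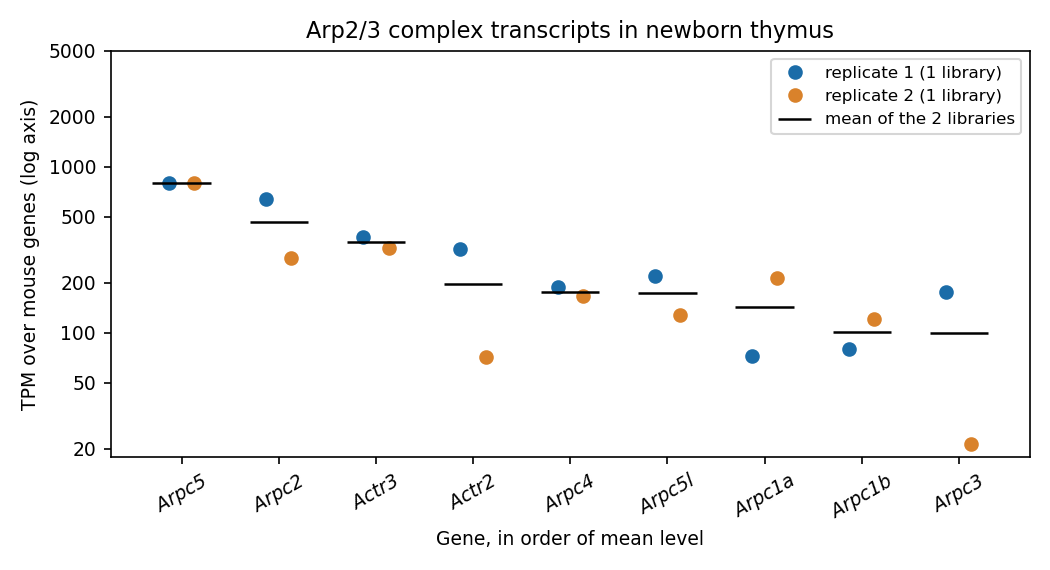
Level of the 9 Arp2/3 subunit genes in TPM over mouse genes (log axis), with 1 point for each library and a line at the mean of 2. Arpc5 is nearly equal in both libraries, Actr2, Arpc2 and Arpc3 are higher in replicate 1, and Arpc1a and Arpc1b are higher in replicate 2.

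Between the pups, 2 of the 10 genes, Arpc2 and Arpc3, differed by 2-fold or more on the log2(TPM + 1) scale, both higher in replicate 1. The share was 67.7% over all 9341 mouse genes averaging at least 100 counts. At 1.5-fold 4 members differed, with Pfn1 and Arpc1b added, against 78.9% of those genes, and at 4-fold 1 did, Arpc3, against 50.9%. Most members are far more deeply read than that background. Of the 8 members averaging at least 10000 counts 1 differed 2-fold, against 16.6% of the 451 mouse genes at that depth. Of the other 2 members 1 did, against 59.3% of the 5505 genes between 1000 and 10000 counts. The members' counts are thus near the background at matched depth. The median absolute log2 ratio of the 8 was 0.28, against 0.40 for all genes at 10000 or more counts.

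Read by direction, 9 of the 10 were higher in replicate 1, against 47.0% of genes averaging at least 100 counts. Among the 8 deeply read members all were higher there, against 51.9% of genes at that depth. The members' median log2 ratio was 0.28, while that of all genes at 10000 or more counts was 0.02. The number higher in replicate 1 was 9 with TMM scaling and 8 with DESeq2 size factors, where Coro1a changed side. No test was possible, since each pup gave 1 library. The deposited credibility interval of each level, whose confidence level the sources used here do not give, had a half-width of 0.419% to 1.61% of the level in the 7 most abundant members. For Arpc2 it was 1.49% and 2.09%, for Arpc1b 8.02% and 7.74% and for Arpc3 4.16% and 9.98%.

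**Figure D3:**
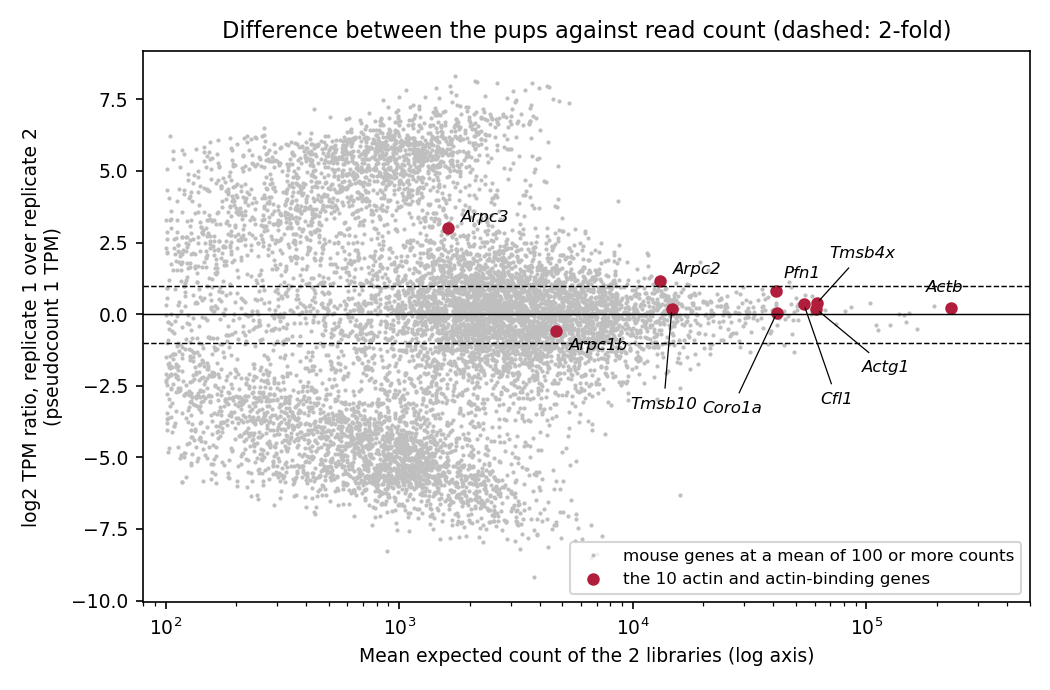
Log2 TPM ratio of replicate 1 over replicate 2 against the mean expected count of both libraries (log axis) for 9341 mouse genes (grey) and the 10 members (red), with dashed lines at 2-fold. The spread of all genes narrows with read count, and Arpc2 and Arpc3 are the members outside the 2-fold lines.

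Each of the 10 genes had the same leading transcript in both libraries, and all leading transcripts are annotated as protein coding. In the deposited shares of a gene's TPM, 1 transcript held nearly everything for Actb (Actb-201, 99.7% in replicate 1 and 99.5% in replicate 2), Tmsb10 (Tmsb10-203, 98.7% and 99.6%), Tmsb4x (Tmsb4x-201, 98.4% and 99.7%) and Pfn1 (Pfn1-201, 96.7% and 99.7%). Cfl1 has a single transcript in these tables. The second Tmsb4x transcript, Tmsb4x-203, held 1.59% and 0.28%. Coro1a-201 held 92.2% and 97.4% of Coro1a, and transcripts not annotated as coding, all with a retained intron, held 5.72% and 2.42%.

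Expression was divided in Actg1, Arpc2 and Arpc1b. Actg1-202, of 1952 nt, held 63.3% of Actg1 in replicate 1 and 57.7% in replicate 2, and Actg1-204, of 1827 nt, held 36.6% and 42.3%. Arpc2-203 and Arpc2-201 held 80.8% and 19.2% of Arpc2 in replicate 1 and 82.9% and 17.0% in replicate 2. Arpc1b was the most mixed. Its leading transcript Arpc1b-201, of 3105 nt, held 61.7% and 62.7%, Arpc1b-205 held 25.6% and 17.9%, and transcripts not annotated as coding held 12.7% and 19.4%. Arpc3-202 held 92.5% of Arpc3 in replicate 1 and 100% in replicate 2, where the gene had few reads.

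Copies with at least 90% identity over at least 50% of the leading transcript were read for 3 of the 10 genes, Actb, Actg1 and Tmsb10. Actg1 had 5 such copies, all pseudogenes, which took 1.09% of the combined counts in replicate 1 and 0.780% in replicate 2, mostly Gm12715 with 573 and 364 counts at 99.6% identity. The Actb pseudogene Gm15725 (91.8% identity) had 91.9 and 1086 counts, or 0.0396% and 0.473%. Gm9844, annotated as protein coding and 99.1% identical to Tmsb10, had 130 and 73.4 counts. Reads of such copies and of the parent genes cannot be fully told apart, so the values of the copies are uncertain. Exons of Bola2 overlap Coro1a on the opposite strand, with 1607 and 1815 counts, and exons of Pdap1 overlap Arpc1b likewise, with 1340 and 910 counts. The sources used here do not say whether counting used strand, so reads in those overlaps are uncertain.

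The wider actin pathway was described with 9 lists of 112 names, of which 109 were matched. Of the 86 that averaged at least 100 counts, 45 differed by 2-fold or more between the pups (52.3%, against 67.7% of all genes). Of these 13 were higher in replicate 1 and 32 in replicate 2, against 29.7% and 38.0% of all genes in those directions. Their median log2 ratio was -0.42, beside -0.17 for all 9341 genes. At 1000 counts or more 32 of 72 pathway genes differed 2-fold (44.4%, against 56.0% of all genes at that depth), and at 10000 or more 5 of 20 did (25.0%, against 16.6%). Their median log2 ratios were -0.15 at 1000 or more counts and -0.06 at 10000 or more. Medians of all genes were -0.12 between 1000 and 10000 counts and 0.02 at 10000 or more. That of the 8 members at 10000 or more was 0.28. For single lists the share set beside them is the 67.7%, which is not matched for depth.

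Non-muscle myosin genes were among the most abundant of these transcripts. The myosin light chain gene Myl6 stood at 1275 TPM in replicate 1 and 1308 TPM in replicate 2, and Myl12a at 875 and 623 TPM. Myl12b stood at 290 and 170 TPM, the heavy chain gene Myh9 at 185 and 165 TPM, and Myl9 at 121 and 200 TPM. The counts of Myh9, 10905 and 16985, ran the other way from its TPM. Of 6 myosin genes, 1 differed 2-fold, against 67.7% of all genes averaging at least 100 counts. All 6 averaged more than 1000 counts. At such depth the share was 59.3% of genes between 1000 and 10000 counts and 16.6% at 10000 or more.

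In the severing and disassembly list 8 of 14 genes differed 2-fold, 1 higher in replicate 1 (Cfl2) and 7 in replicate 2, a share of 57.1% against 67.7% of all genes, with 29.7% and 38.0% of all genes in those directions. Gmfg, a debranching factor of blood cells, led it at 1044 and 878 TPM, and Gsn, the gelsolin gene, stood at 181 and 310 TPM. Wdr1, the cofilin cofactor, was even at 128 and 136 TPM. Limk2, which encodes a kinase that inactivates cofilin, had 18 and 3655 counts, and Ssh1, a phosphatase that reactivates it, had 2 and 2073. Limk1 had 0 and 265 counts, Coro2b 0 and 97 and Ssh3 0 and 28. The capping and crosslinking list had 11 of 20 at 2-fold, 4 higher in replicate 1 and 7 in replicate 2, again against 67.7% of all genes. The tropomyosin gene Tpm3 led it at 561 and 573 TPM, followed by the capping protein gene Capzb at 278 and 542 TPM. Vim, Capza2 and Msn were at 173 and 254 TPM, 137 and 227 TPM and 133 and 216 TPM. Tpm1, at 192 and 42.0 TPM, and the ERM gene Rdx, at 160 and 41.1 TPM, were among those higher in replicate 1. The plastin gene Pls3 had 0 and 2357 counts, Evl 0 and 152 and Enah 0 and 56.

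Among activators of the Arp2/3 complex, Brk1, Wasf2 and Abi1, which encode parts of the WAVE complex, were at 344 and 281 TPM, 255 and 171 TPM and 194 and 122 TPM, all within 2-fold. Cyfip1 and Cyfip2 of that complex stood at 76.7 and 133 TPM and at 64.0 and 98.4 TPM. The counts of Cyfip1, 3753 and 3611, ran the other way from its TPM. The list that holds these genes takes in nucleation promoters and formins together. Of its 17 measured genes 8 differed 2-fold, 3 higher in replicate 1 and 5 in replicate 2, against the same 67.7%. Some were read in 1 pup alone. The formin gene Fmnl1 had 0 and 6304 counts (at least 1712-fold lower in replicate 1, against a floor of 3 counts in that library) and the cortactin gene Cttn had 0 and 7217 (at least 1960-fold lower). The formin gene Diaph2 had 3034 and 0 counts (at least 1241-fold higher). Nckap1 had 3 and 2640 counts, Daam1 had 1 and 285 and Diaph3 had 0 and 166. Such bounds cover read counting only. In all, 12 of the 86 pathway genes had 10 or more counts in 1 library and 3 or fewer in the other, against 35.1% of all genes at that minimum. None of the 10 members did, but most of them are far more deeply read than those genes. No share at matched depth was computed for this call. The transcription factor Srf, which drives actin genes, stood at 2.96 and 7.57 TPM, and its actin-sensing cofactors Mrtfa and Mrtfb at 30.8 and 34.0 TPM and at 71.6 and 37.6 TPM. The counts of Mrtfb, 2624 and 6459, ran the other way from its TPM.

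**Figure D4:**
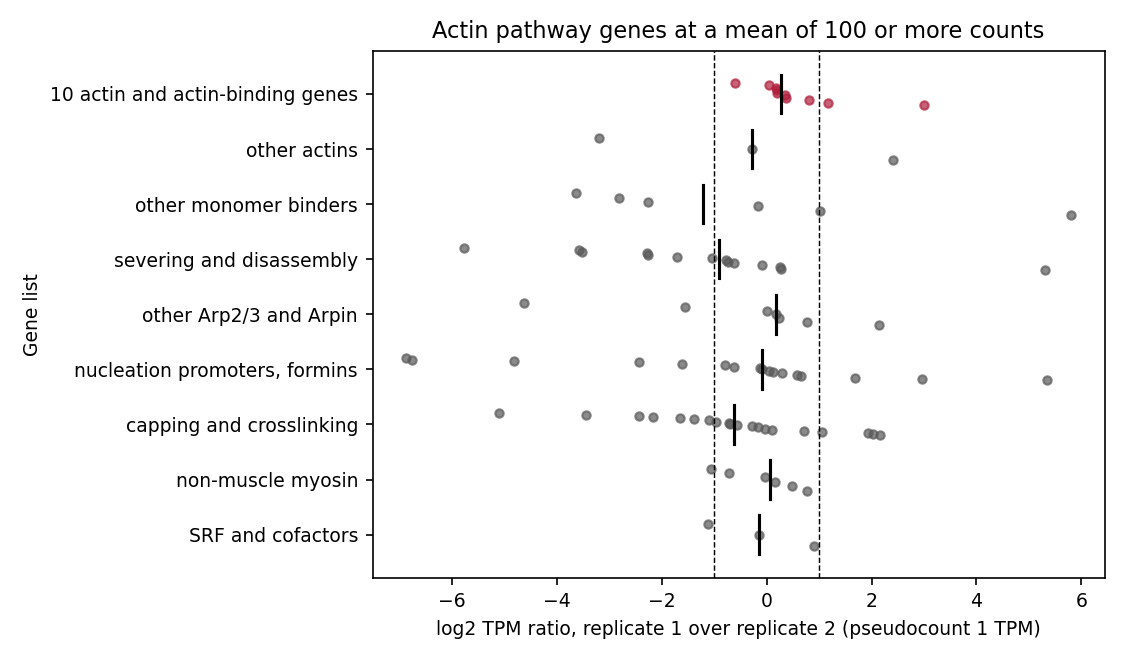
Log2 TPM ratio of replicate 1 over replicate 2 for the 10 members (red, top row) and for genes of 8 of the 9 pathway lists averaging at least 100 counts (grey), with a black bar at each median and dashed lines at 2-fold. The members' median lies at 0.28, that of the other monomer binders at -1.21 and that of the severing genes at -0.91, and 1 list is not drawn.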

How the data were processed

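Gene and transcript tables were deposited for each of 2 newborn thymus libraries. Per the file headers they give expected counts, TPM, posterior means of both, and each transcript's percent of its gene's TPM. Per the deposited text notes the assembly was mm10 (GRCm38) with annotation M4. Neither aligner nor counting program was given in the sources used here.

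Gene IDs were matched to GENCODE M21 without version (42462 of 43346 found). TPM was rescaled to 1000000 over mouse genes, without spike-ins and other entries. A log2 ratio sets replicate 1 on top, after adding 1 TPM to each value, and was tested on simulated data. Copies were found with blastn 2.17.0 and coding sequences aligned with biopython 1.88. Counts were rounded for scaling with edgeR 4.0.16 (TMM) and DESeq2 1.42.0. Depth was 25999043 and 31902773 mouse counts.

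Members and lists were chosen with earlier results of these data known. Named genes were the members, the genes next to the highest and lowest of them, copies averaging 100 or more counts, leading transcripts with any next one at 10% or more, and, in each list, the 5 of highest mean TPM and those with 10 or more counts in 1 library and 3 or fewer in the other. Arpc1a, Cfl2, Coro1c, Coro7, Limk2, Rdx, Tpm1, Pfn3, Pfn4, Tmsb15a, Tmsb15b2, copies under 100 counts, lesser transcripts, marker genes and Lrrc58 were named outside that rule, after their values were seen. The genes of 1 of the 9 lists are not reported here one by one.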

Additional observations from a re-analysis of the deposited data

How the results depend on the processing

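Across the alternatives the 2 genes past 2-fold stayed at 2 with posterior mean TPM, TMM, DESeq2 size factors, spike-ins kept, mitochondrial genes left out and pseudocounts of 0.1 or 10 TPM. The count was 4 at 1.5-fold and 1 at 4-fold, beside 78.9% and 50.9% of all genes. The pathway count of 45 became 27 at 4-fold. The Actb to Actg1 ratio of 3.75 was 3.70 with copies added to each gene. Thymosin per actin fell to 0.260 when counts were not divided by length, since thymosin transcripts are short. With each library alone the members' sum was 17515 to 22278 TPM, the actin ratio 3.72 to 3.77 and the thymosin ratio 0.729 to 0.800. Of 30 alternative values of single levels 27 moved by less than the SD, and the other 3 were all Coro1a, whose SD is small. None of the 20 log2 ratios recomputed with posterior mean TPM or TMM changed direction or crossed 2-fold, while with DESeq2 size factors Coro1a changed side and 8 members, against 9, were higher in replicate 1. No ratio between replicates could be formed without 1 of them. No paired analysis was possible because there is 1 group. With 2 libraries of 13 pg, the difference between pups cannot be told apart from that between libraries.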

Other observations

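Lrrc58, a protein-coding gene on GRCm38 chromosome 16 (37868389 to 37888858, plus strand), holds a transcript that matched 97.6% of the leading Actb transcript at 89.6% identity, just under the minimum used for copies. The Actb pseudogene Gm15725 (37882542 to 37883631) lies within its bounds on the same strand. Lrrc58 had 1208 counts in replicate 1 and 3272 in replicate 2, and Gm15725 had 91.9 and 1086. The gene tables do not say how many reads of Lrrc58 come from the actin-like stretch. At a minimum of 80% identity, which takes in the muscle actins, Actb had 16 relatives outside the members, 13 of them read, and those closer to Actb than to Actg1 held 7.33% of their combined counts with Actb in replicate 1 and 5.10% in replicate 2.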
